A study of Mus musculus with 44 samples.

Results

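S100a8, S100a9, S100a4 and Lgals3 were followed across 44 single mouse cells. They are 4 of the 3613 genes listed in the deposited expression table, taken by name: 3 genes of the S100 family of calcium-binding proteins and 1 galectin gene. Of the cells, 20 had been cultured with megakaryocytes (co-cultured cells) and 24 without (no-MK cells). Both groups were neonatal calvarial cells of C57BL/6J mice kept for 16 h, with 50000 megakaryocytes added for the co-cultured cells, and were then sorted as CD45-positive, F4/80-positive and CD41-negative osteomacs, the macrophages of bone surfaces. Plate 7 held every co-cultured cell and plate 3 every no-MK cell, so an effect of plate and one of culture cannot be told apart. No label names an animal or a separate culture, which makes each group 1 sample. The titles of the no-MK cells also name megakaryocytes, against their treatment field, which was followed here. Values below describe these cells, with no test between the groups and no p-value.

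S100 proteins are small proteins with EF-hand calcium-binding sites, and most work as dimers. S100A8 and S100A9 pair to form calprotectin, abundant in neutrophils and monocytes and made by macrophages under inflammatory stimuli. Outside the cell it binds the receptors TLR4 and RAGE. S100A4 binds non-muscle myosin and moves with motile cells. It is used as a fibroblast marker under the name FSP1 and is also made by macrophages. Galectin-3, encoded by Lgals3 and long known as the macrophage antigen Mac-2, binds β-galactoside sugars at the cell surface and on damaged lysosomes.

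Sequencing depth was 69181 to 1212604 library reads per co-cultured cell (median 834834) and 270537 to 714465 per no-MK cell (median 527930). These reads were recovered from the deposited values, and CPM means recovered reads × 1e+06 / library reads of a cell. By summed macrophage markers, the labelled cell type held for the co-cultured cells only. The 16 listed macrophage markers, of 24 sought, summed to 2584 to 57350 CPM in co-cultured cells and to 0 to 709 CPM in no-MK cells, with reads of the scavenger receptor gene Msr1 (30786 and 2), Tyrobp (27557 and 3) and Adgre1, which encodes F4/80 (7780 and 1), among them. The genes of the sort markers were not read evenly. Adgre1 had no read in co-cultured cells 7, 16 and 19 and 4 to 14 reads in cells 9, 10, 11, 17 and 20. Ptprc, which encodes CD45, had 2 reads each in co-cultured cells 6 and 7. The 6 listed osteoblast and fibroblast markers, of 20 sought, summed to 3.88 to 154 CPM in co-cultured cells and to 924 to 90315 CPM in no-MK cells. Among these, the smooth muscle actin gene Acta2 had 2 and 8330 reads, the matrix protein gene Sparc 56 and 75589, and the collagen gene Col1a2 38 and 49254. None of the lymphoid, erythroid, endothelial, dendritic or mast cell markers sought is listed. Each comparison below therefore sets macrophage-rich libraries against stromal ones, and the part of cell type in it cannot be told apart from that of megakaryocytes. Every co-cultured cell had 1 to 7 reads of Sparc, so a few reads of a gene can occur in cells of the group where it is otherwise absent. Co-cultured cells 11 and 16 were the shallowest, and cell 16 held 245233 CPM of the nuclear RNA Malat1.

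S100a4, S100a8 and S100a9 lie close together in the S100 gene cluster of chromosome 3 in the mm10 build. S100a4 spans 90603771 to 90606045 and S100a8 90668978 to 90670035, both on the plus strand. S100a9 spans 90692632 to 90695721 on the minus strand. Lgals3 lies on chromosome 14 at 47367751 to 47386160, plus strand. All are protein-coding genes of GENCODE. S100a4 overlaps Gm42674 on its own strand, and reads of that overlap cannot be assigned to one of them. The promoter windows of S100a8 and S100a9 are shown because the products of these neighbouring genes pair with each other while their reads differed greatly. Each window spans the RefSeq start on GRCm38.p6, at chr3:90668821-90669120 (plus strand) and chr3:90695672-90695971 (minus strand). Capitals mark matches on either strand to TTNNGNAA, a C/EBP-type motif, or GAGGAA, a PU.1-type motif.
S100a8: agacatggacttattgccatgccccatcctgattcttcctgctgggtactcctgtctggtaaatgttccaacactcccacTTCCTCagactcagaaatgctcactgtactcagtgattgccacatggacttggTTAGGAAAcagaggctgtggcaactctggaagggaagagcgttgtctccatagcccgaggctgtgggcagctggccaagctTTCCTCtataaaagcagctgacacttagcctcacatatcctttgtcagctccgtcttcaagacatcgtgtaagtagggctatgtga
S100a9: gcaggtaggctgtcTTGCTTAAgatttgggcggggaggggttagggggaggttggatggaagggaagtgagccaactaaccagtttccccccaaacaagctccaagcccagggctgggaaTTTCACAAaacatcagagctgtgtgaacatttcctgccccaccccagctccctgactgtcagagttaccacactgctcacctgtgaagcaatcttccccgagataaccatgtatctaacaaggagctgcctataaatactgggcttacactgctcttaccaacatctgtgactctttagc
Counted from the RefSeq start, the S100a8 window held a C/EBP-type match at −117 and PU.1-type matches at −170 and −36. The GENCODE span of S100a8 begins upstream of that start, so the match at −36 lies inside the span. The S100a9 window held C/EBP-type matches at −236 and −130 and none of the PU.1 type. Among all 32851 promoter windows of the same length, 40.7% held a C/EBP-type match and 28.3% a PU.1-type match, so these letters are common. The AP-1 motif TGANTCA, held by 7.81% of windows, was in none of the windows of the 4 genes. The S100a4 window held 1 PU.1-type match, and the Lgals3 window held no match to any of the 3 motifs. That Lgals3 window, at chr14:47373610-47373909, lies inside the GENCODE span of the gene, so the GENCODE start was not searched.

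S100a8 was carried by part of the co-cultured cells and by very few no-MK cells. Reads were found in 10 of the 20 co-cultured cells, a share with a 95% interval of 27.2 to 72.8%, and in 3 of the 24 no-MK cells (12.5%, with an interval of 2.66 to 32.4%). In co-cultured cells the 10 cells with reads had 1167 CPM (cell 15), 722 (cell 12), 506 (cell 11), 497 (cell 8), 173 (cell 18), 142.97 (cell 9), 70.7 (cell 1), 16.4 (cell 17), 12.6 (cell 7) and 8.75 (cell 14), and the other 10 had none. In no-MK cells, cell 1 had 37.7 CPM from 20 reads, cells 8 and 15 had 1 read each, and the others had none. Of the co-cultured cells 7 lay above the highest no-MK cell, yet the groups overlap, since cells with no read occurred in both. The sums were 2094 reads (2005 to 2186) in co-cultured cells and 22 reads (13.8 to 33.3) in no-MK cells, which is 133.9 and 1.77 CPM and a 75.6-fold ratio (interval 49.8 to 120.8). On the log2(CPM + 1) scale S100a8 averaged 3.48 ± 3.97 over the 20 co-cultured cells and 0.34 ± 1.12 over the 24 no-MK cells, where ± is the SD between cells.

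Few cells held nearly all S100a8 reads. Co-cultured cells 15, 12 and 8 held 82.8% of the reads of their group, and cell 15 alone 33.7%. No-MK cell 1 held 90.9% of the reads of its group, and it had no read of Ptprc, Adgre1, Lyz2 or Mmp8, with 4423 CPM of Sparc. Without the cell of most reads in each group, the sums were 1389 and 2 reads and the log2 ratio was 9.10, against 6.24 with all cells. Co-cultured cell 15 also had the highest macrophage marker sum, 57350 CPM. The lysozyme gene Lyz2, itself one of these markers and also made by granulocytes, gave 33484 CPM of that sum.

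S100a9 was close to the limit of detection in both groups, although its product is the partner of S100A8. A read was present in 7 of the 20 co-cultured cells (interval 15.4 to 59.2%) and 4 of the 24 no-MK cells (16.7%, interval 4.74 to 37.4%). Co-cultured cell 15 had 8 reads and the other 6 had 1 each. Among no-MK cells, cell 8 had 2 reads and 3 cells had 1 each. Summed, that made 14 reads (7.65 to 23.5) in co-cultured cells and 5 reads (1.62 to 11.7) in no-MK cells, equal to 0.895 and 0.403 CPM. Their ratio of 2.22 has an interval of 0.757 to 7.89, and a difference was not detectable from the reads as recovered. Apart from the 8 reads of cell 15, these counts lie in the range of the Sparc reads found in every co-cultured cell, so cells with 1 S100a9 read cannot be called positive. The reads are the smallest whole numbers that fit the deposited values. With so few distinct S100a9 values, a common multiple of them would fit as well, in which case the CPM would be higher, the ratio the same and its interval narrower.

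S100a8 and S100a9 were read in the same cell in 4 of 20 co-cultured cells and in 2 of 24 no-MK cells. In co-cultured cells, 6 had S100a8 alone, 3 had S100a9 alone and 7 had neither. In no-MK cells, 1 had S100a8 alone, 2 had S100a9 alone and 19 had neither. Only co-cultured cells 11 and 15 reached 10 CPM of both, and cell 11 did so with 1 S100a9 read in a library of 69181 reads. In cell 15 there were 705 reads of S100a8 and 8 of S100a9. Co-cultured cells 8 and 12, next in S100a8 reads, had 470 and 559 reads of it and none of S100a9.

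**Figure D1:**
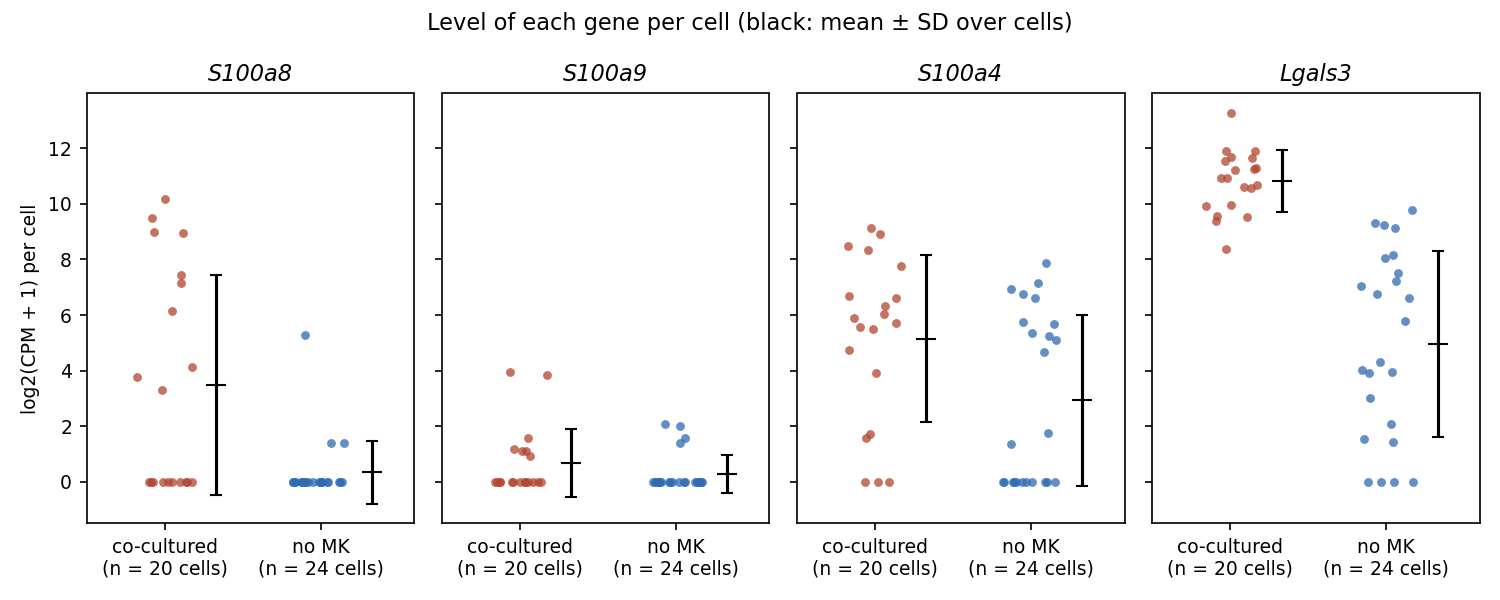
Level of S100a8, S100a9, S100a4 and Lgals3 in each cell as log2(CPM + 1), with 20 co-cultured cells in red and 24 no-MK cells in blue; each point is a cell and black bars give the mean ± SD over cells. Lgals3 is above 0 in all 20 co-cultured cells, S100a8 splits the co-cultured cells into 10 with and 10 without reads, and S100a9 does not exceed 14.5 CPM in any cell.

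S100a4 was read in most co-cultured cells and in about as many no-MK cells as lacked it, and its level was moderately higher in co-cultured cells. S100a4 reads occurred in 17 of the 20 co-cultured cells (85.0%, interval 62.1 to 96.8%) and 13 of the 24 no-MK cells (54.2%, interval 32.8 to 74.4%). The level ran from 0 to 561 CPM with a median of 54.8 in co-cultured cells, and from 0 to 235 CPM with a median of 1.99 in no-MK cells. The ranges overlapped widely, and the 11 no-MK cells with at least 10 CPM lay within the co-cultured range. Co-cultured cells had 2076 reads in sum (1988 to 2167) and no-MK cells 469 (428 to 513). Their pooled levels were 132.7 and 37.8 CPM, a 3.51-fold ratio with an interval of 3.18 to 3.89. The mean of log2(CPM + 1) was 5.14 ± 3.01 in co-cultured cells and 2.93 ± 3.09 in no-MK cells.

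The S100a4 reads were spread over more cells than those of S100a8. In co-cultured cells, 9 cells held 90% of the S100a4 reads and 5 cells held 90% of the S100a8 reads. Co-cultured cell 15 had the highest S100a4 level, 561 CPM, as it had for S100a8, while cell 19 had the most reads, 528, at 478 CPM. Cell 19 stood apart in its macrophage transcripts. It had 1531 CPM of Csf1r, the receptor of macrophage colony-stimulating factor, and 1898 of the receptor adaptor Tyrobp, but no read of Adgre1 and 1 read of Lyz2. Co-cultured cells 6, 7 and 8 had no S100a4 read at 707594 to 945927 library reads. The no-MK cells thus did not carry more S100a4 than the co-cultured cells, although the gene is used as a fibroblast marker. Leaving out co-cultured cell 19 and no-MK cell 3 gave S100a4 a log2 ratio of 1.89, against 1.81 with all cells.

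Lgals3 was the most abundant and most widely read of the 4 genes. Every one of the 20 co-cultured cells had Lgals3 reads (lower limit of the interval 83.2%), as did 20 of the 24 no-MK cells (83.3%, interval 62.6 to 95.3%). With at least 10 reads required, the counts were 20 of 20 and 12 of 24, so part of the no-MK share rests on few reads. The level ran from 335 to 9875 CPM with a median of 1947 in co-cultured cells, and from 0 to 880 CPM with a median of 36.96 in no-MK cells. The groups overlapped at 335 to 880 CPM, where 4 co-cultured cells met 4 no-MK cells. Lgals3 reads summed to 36614 (36240 to 36991) in co-cultured cells and to 2051 (1963 to 2142) in no-MK cells. The pooled levels of 2341 and 165 CPM gave a 14.2-fold ratio with an interval of 13.6 to 14.8. The mean of log2(CPM + 1) was 10.81 ± 1.12 in co-cultured cells and 4.96 ± 3.35 in no-MK cells, so the spread between cells was smaller in co-cultured cells.

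Cells at the extremes of Lgals3 differed in library reads and in marker reads. Co-cultured cell 7 was highest, with 8622 reads and 9875 CPM, and had 2 reads of Ptprc and none of Adgre1 but 4493 CPM of Lyz2 and 1692 of Csf1r. Cell 16, with few reads and much Malat1, was lowest. Among no-MK cells, cells 18, 17, 19 and 16 led with 880, 633, 610 and 558 CPM of Lgals3. Their macrophage marker sums were 25.9, 31.1, 33.5 and 82.8 CPM, below the lowest co-cultured sum of 2584, and cell 18 had no read of Tyrobp, Ptprc or Adgre1 and 4824 CPM of Sparc. In co-cultured cells 5 cells held 50% of the Lgals3 reads, and in no-MK cells 3 did.

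**Figure D2:**
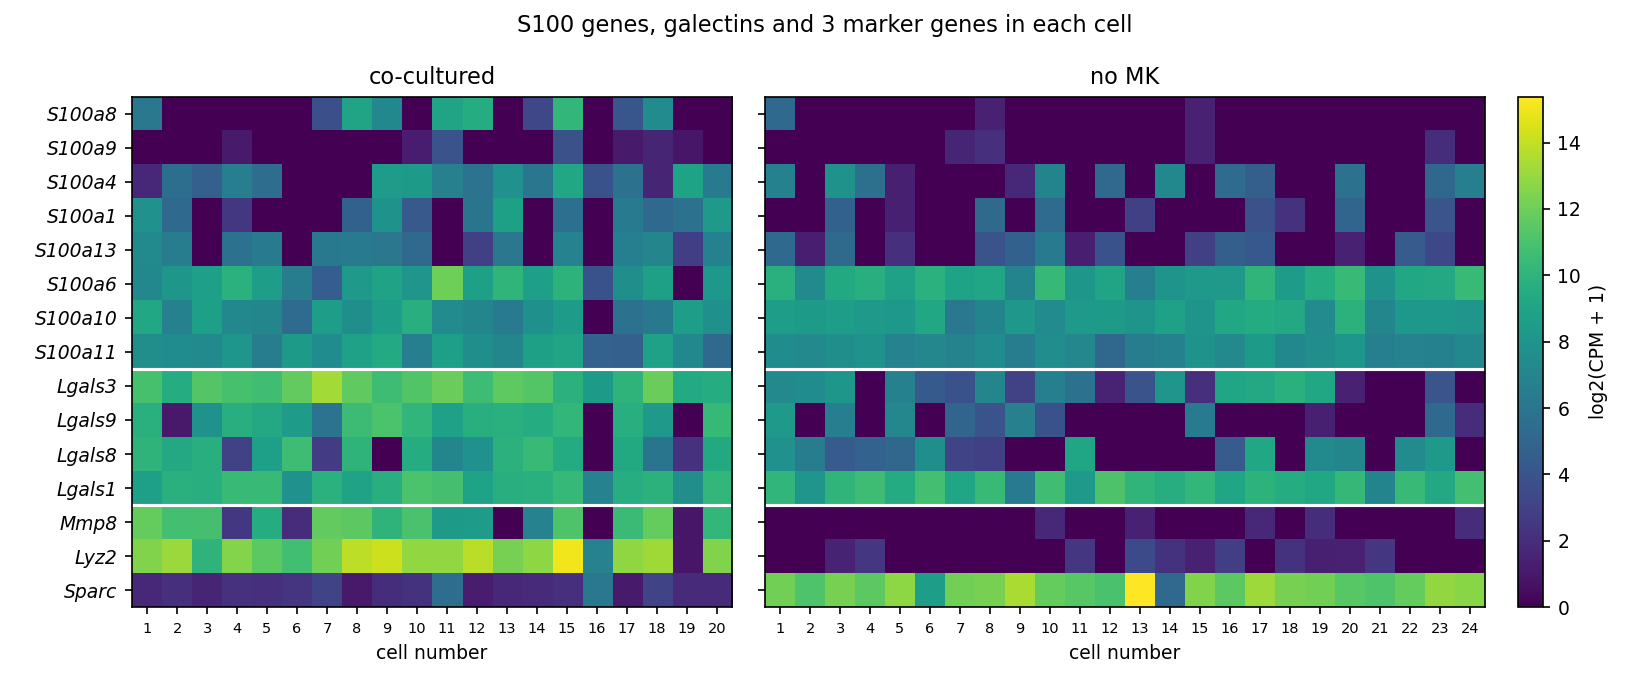
Level as log2(CPM + 1), from dark (0) to yellow, of 8 S100 genes, 4 galectin genes and the marker genes Mmp8, Lyz2 and Sparc in each cell, numbered by the sample titles; co-cultured cells are on the left and no-MK cells on the right. S100a6, S100a10, S100a11 and Lgals1 are read in nearly every cell of both groups, while S100a8 and Lyz2 are read mainly in co-cultured cells, of which only cell 19 is dark for Lyz2.

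**Figure D3:**
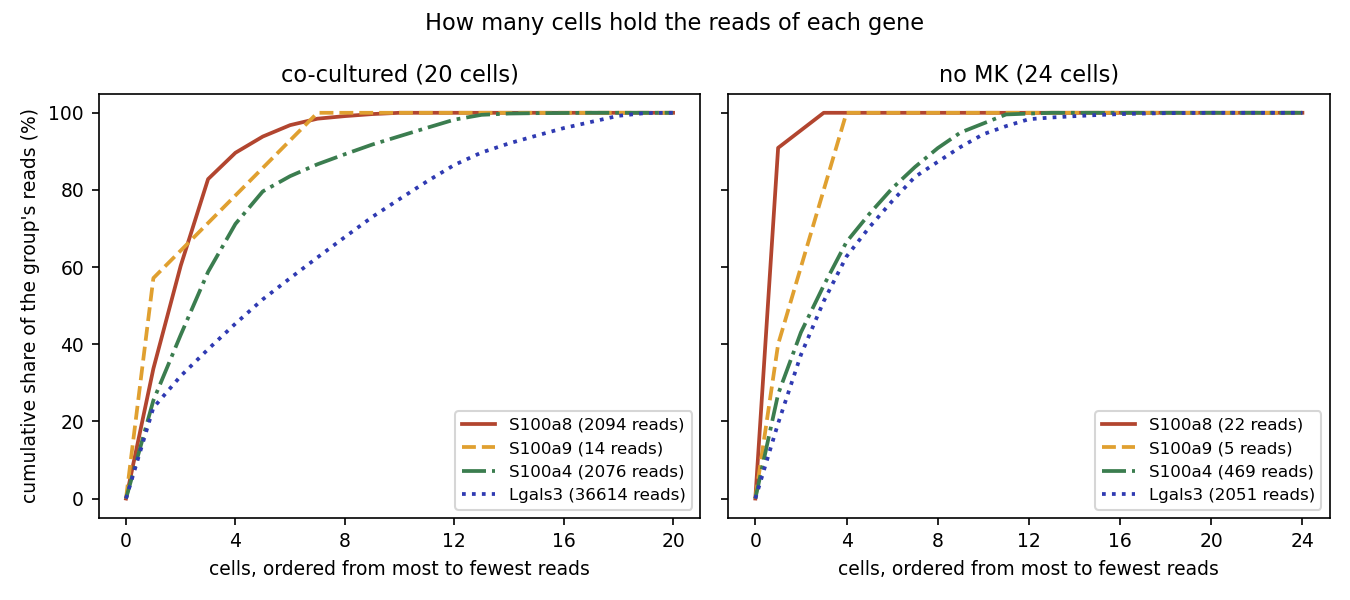
Cumulative share of the reads of each gene (%, vertical axis) over the cells ordered from most to fewest reads (horizontal axis), for co-cultured cells on the left and no-MK cells on the right. In co-cultured cells 3 cells hold 82.8% of the S100a8 reads, while 14 cells are needed for 90% of the Lgals3 reads; the S100a9 lines rest on 14 and 5 reads.

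All 4 genes had reads in at least 10 of the 44 cells, and each had a pooled level at least 2-fold higher in co-cultured cells, S100a9 with an interval that includes no change. Among the 3271 genes with that many cells, 24.4% were at least 2-fold higher and 28.3% at least 2-fold lower in co-cultured cells, with a median log2 ratio of −0.14. S100a8 and S100a9 met the limit of 10 cells mostly through co-cultured cells, with 10 and 7 of them against 3 and 4 no-MK cells. The members were also chosen with earlier results of these data known, so the count of members is a description. Deposited values cannot be compared between genes, so levels are given as CPM per kilobase of annotated exon for that purpose. On that scale Lgals3 stood at 1260 in co-cultured cells and 88.9 in no-MK cells, S100a4 at 227 and 64.7, S100a8 at 193 and 2.55, and S100a9 at 1.71 and 0.772. S100a8 and S100a4 were thus close to each other as pooled levels in co-cultured cells, while S100a9 was far below both.

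The other listed S100 genes formed a broad and a narrow set. Of 18 S100 genes sought, 8 are listed. S100a6, S100a10 and S100a11, read in at least 19 of 20 co-cultured cells and in 24 of 24 no-MK cells, differed by less than 2-fold. S100a6 stood at 393 CPM in co-cultured cells and 559 in no-MK cells, and its log2 ratio of −0.51 became 0.15 with median-ratio scaling. S100a10, the partner of annexin A2, stood at 264 and 345 CPM, and S100a11 at 243 and 157 CPM. A processed pseudogene of S100a11 exists, and how such reads were counted is not stated. S100a1, best known from muscle, and S100a13 were read in fewer cells and were higher in co-cultured cells. S100a1 was read in 13 of 20 and 9 of 24 cells, at 85.4 and 7.41 CPM, an 11.52-fold ratio (9.32 to 14.4). S100a13 was read in 15 of 20 and 15 of 24 cells, at 62.3 and 11.7 CPM, a 5.34-fold ratio (4.48 to 6.40). In all, 5 of 8 listed S100 genes were at least 2-fold higher in co-cultured cells and none was 2-fold lower. Of all genes tested, 24.4% were as much higher and 28.3% as much lower. The 5 include the members S100a8, S100a9 and S100a4, chosen with earlier results known, so the count is a description. Of the other listed S100 genes, only S100a1 and S100a13 were 2-fold higher. With the listed genes' reads as the total, the log2 ratio of S100a9 was 0.89, under 2-fold.

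Of 10 galectin genes sought, 4 are listed, and 3 of them were at least 2-fold higher in co-cultured cells and none was 2-fold lower, beside 24.4% and 28.3% of all genes tested. The 3 include the member Lgals3, chosen with earlier results known. Lgals9, a tandem-repeat galectin of immune cells, stood at 747 and 35.9 CPM, a 20.8-fold ratio (18.9 to 22.9), with reads in 18 of 20 co-cultured and 11 of 24 no-MK cells. Lgals8, another tandem-repeat galectin, stood at 577 and 102 CPM, a 5.66-fold ratio (5.34 to 6.01). It overlaps Heatr1 on the opposite strand. Lgals1, which encodes galectin-1, stood at 871 and 928 CPM and was read in every cell of both groups. Its log2 ratio of −0.09 became 0.08 with median-ratio scaling, and pseudogene copies of it exist. Per kilobase of exon, Lgals3 led the listed S100 and galectin genes in co-cultured cells and had rank 5 in no-MK cells, where Lgals1 led.

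**Figure D4:**
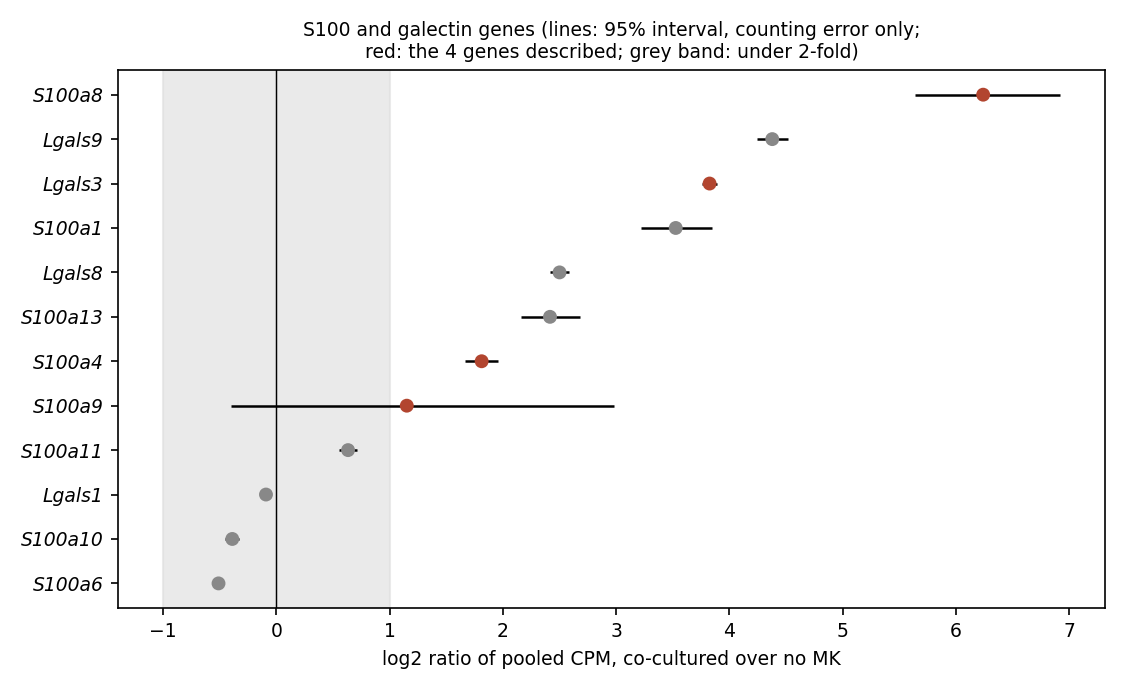
Log2 ratio of pooled CPM, co-cultured over no-MK cells, for the 8 listed S100 and 4 listed galectin genes; lines are 95% intervals for counting error only, red points are the 4 genes described and the grey band marks less than 2-fold. S100a8 lies highest at 6.24, Lgals9 and Lgals3 follow at 4.38 and 3.82, and the S100a9 line crosses 0.

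Genes of binding partners and receptors of these proteins were on both sides, as all genes were, of which 24.4% were at least 2-fold higher and 28.3% at least 2-fold lower in co-cultured cells. Of 20 genes of annexins and other S100 partners, 14 are listed, of which 2 were at least 2-fold higher and 7 at least 2-fold lower in co-cultured cells, with a median log2 ratio of −0.68. Anxa4, an annexin, stood at 639 and 92.1 CPM, while the tropomyosins Tpm1 (60.9 and 1633 CPM) and Tpm4 (319 and 1808 CPM) were lower. Myh9, the non-muscle myosin that S100A4 binds, stood at 805 and 643 CPM, and Anxa2 at 937 and 3350 CPM. Of 16 genes of receptors and signalling proteins that sense S100 proteins, 7 are listed, with 4 at least 2-fold higher and 1 at least 2-fold lower, beside the same 24.4% and 28.3% of all genes. The fatty acid receptor Cd36 stood at 929 and 1.93 CPM, the lysosomal glycoprotein Cd68 at 942 and 17.3, and Cd14, the co-receptor of TLR4, at 290.2 and 7.25. Tlr4 and Ager, which encodes RAGE, are not among the genes listed.

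Of 19 genes of galectin-3 ligands and of damaged lysosomes, 10 are listed and 9 had reads in enough cells, of which 3 were at least 2-fold higher and 2 at least 2-fold lower in co-cultured cells. These counts are near the 24.4% and 28.3% of all genes and show nothing particular to the list. Lgals3bp, which encodes a secreted glycoprotein that binds galectin-3, had 4500 reads in 16 of 20 co-cultured cells and 2 reads in 1 of 24 no-MK cells. Trem2, a lipid receptor of macrophages to which galectin-3 binds, had 3620 reads and 1 read. Itga5, an integrin chain, was lower, with 28 and 3828 reads. Across the 20 co-cultured cells, Lgals3 and Lgals3bp had a Spearman correlation of 0.57 and a Pearson correlation of 0.56 in log2(CPM + 1), or 0.49 without the 2 cells farthest from the Lgals3 median. Other pairs were weaker or uneven. Lgals3 with Trem2 had a Spearman correlation of 0.32 and a Pearson correlation of 0.31, or −0.04 without those 2 cells. With Cd68 the values were 0.09 and 0.18, and with Lgals9 the Spearman correlation was near 0 and Pearson 0.46.

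Markers of cell types known for calprotectin were mostly not measured. Of 27 neutrophil markers only Mmp8, the neutrophil collagenase, is listed, and Ly6g, Csf3r, Mpo and Elane are not. Mmp8 was read in 18 of 20 co-cultured cells (0 to 3447 CPM, median 1114) and in 5 of 24 no-MK cells (at most 3.05 CPM). Across the 20 co-cultured cells its Spearman correlation with S100a8 was 0.45 and Pearson 0.49. The summed monocyte markers had 0.71 and 0.62 with S100a8, and the summed macrophage markers 0.38 and 0.42. The summed megakaryocyte and platelet markers had 0.22 and 0.27. Of 17 monocyte markers, Ms4a4c, Ifitm3 and Thbs1 are listed. In co-cultured cells their sum was nearly all Thbs1 and Ifitm3, at 719 and 649 CPM against 7.48 of Ms4a4c. Thbs1 was higher in the no-MK cells, so the correlation of this sum with S100a8 cannot be read as one with monocytes. Ms4a4c had 117 reads in 4 co-cultured cells and none in no-MK cells, and Ifitm3 stood at 649 and 142.97 CPM. Thbs1 stood at 719 and 5264 CPM, and the 3 genes summed to 14.0 to 6951 CPM in co-cultured cells and 64.3 to 19414 in no-MK cells. Of 19 megakaryocyte and platelet markers, Pf4, Nbeal2 and Thbs1 are listed, and Itga2b, Gp9 and Ppbp are not. Pf4, which macrophages can also make, was read in 16 of 20 co-cultured cells, at 1694 CPM, and in 5 of 24 no-MK cells, at 0.483 CPM. Nbeal2 had 242 reads in 3 co-cultured cells and 1 read in no-MK cells, and the 3 markers summed to 2.83 to 9073 CPM in co-cultured cells and 54.8 to 19197 in no-MK cells. The no-MK sum was nearly all Thbs1, with 65354 reads against 6 of Pf4 and 1 of Nbeal2. Thbs1 is counted in the monocyte sum too, so the higher no-MK sum cannot be read as more megakaryocyte or platelet transcripts. The part of neutrophils, monocytes or megakaryocytes in the S100a8 reads was not tested.

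Within the co-cultured cells S100a8, S100a4 and Lgals3 did not follow one another closely. The pairs with S100a9 rest on 14 reads in 7 cells, most with 1 read, and cannot show whether it followed the others. The Spearman correlations in log2(CPM + 1) over the 20 cells were 0.32 for S100a8 with S100a9, 0.01 for S100a8 with S100a4, 0.22 for S100a8 with Lgals3, 0.44 for S100a9 with S100a4, 0.08 for S100a9 with Lgals3 and −0.40 for S100a4 with Lgals3. The Pearson values in that order were 0.47, −0.10, 0.24, 0.36, 0.04 and −0.46. Without the 2 cells farthest from the median of the first gene they were 0.40, −0.32, 0.42, 0.20, 0.01 and −0.25. Over the 24 no-MK cells, S100a4 and Lgals3 had a Spearman correlation of 0.06 and a Pearson correlation of 0.05. The cells of a group share a plate and differ in depth, and these values are descriptions.

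The genes most like each member across cells were taken from 2203 genes read in at least 10 of the 20 co-cultured cells. For S100a8 they were Klf13, Lyz2, Pdlim5, Plbd1 and Lsm7, with Spearman correlations of 0.66 to 0.75. Lyz2, the lysozyme of macrophages and granulocytes, had 0.71, and Plbd1, a phospholipase B-like protein, 0.67. For S100a4 they were Cox16, the ribosomal protein genes Rps15 and Rps21, Atp5k and Chmp2a, at 0.72 to 0.88, with Cox16, a cytochrome oxidase assembly factor, highest. For Lgals3 they were Metrnl, Atp6ap1, Ppp1r2, Tlr13 and Myl12a, at 0.63 to 0.80, with Metrnl, a secreted protein, highest and Atp6ap1, an accessory subunit of the vacuolar proton pump, at 0.71. For S100a9 they came from 3309 genes read in at least 3 co-cultured cells and were Gas6, Arf5, Itm2a, Gga2 and Sec22b, at 0.65 to 0.67, which rest on 14 reads.

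In the 24 no-MK cells, 2623 genes were screened for S100a4 and Lgals3. For S100a4 the closest were Cebpzos, Taf12, Ppp2r1a, Por and Foxn2, at 0.57 to 0.75. For Lgals3 they were Pdia6, Syf2, Sgk1, Taf1a and Rap1b, at 0.67 to 0.69, led by Pdia6, a disulfide isomerase of the endoplasmic reticulum. No gene was in the list of the same member in both groups. Lists this short, taken from so many genes, would rarely share a gene by chance. The lack of a shared gene therefore cannot show a difference between the groups. The highest of so many correlations over so few cells is large by selection, so these values only order the genes.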

How the data were processed

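Capture used a Fluidigm C1 chip, and SMART-Seq cDNA went into Nextera XT libraries, per the labels' protocols. The mm10 build and Seurat are named in the submitters' processing notes, while aligner, counter and annotation were not given in the sources used here. The deposited values are a signal of the form reads × 1e+09 / (library reads × a whole number per gene), worked out from the values. That number had no relation to exon length (Spearman −0.019 over 3478 genes). Library reads came from the commonest value in a cell (at most 0.000333 off a whole number), and the smallest fitting divisor per gene turned all 99807 values above 0 into whole reads (tolerance 0.0001). The steps were also tested on data simulated in this same form, which cannot show that the form is right. Library reads were recovered in 44 of 44 cells, and the simulated reads in 3563 of 3574 genes. Of 200 genes given a change, 166 had its direction and a ratio past 2-fold. No doublet caller was run, and no cell was removed.

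With 1 sample per group no count model was fitted. Sums of reads have exact Poisson 95% intervals and ratios exact binomial ones, both for counting error only, and reads are not independent molecules. Shares have exact Clopper-Pearson intervals that treat the cells of a group as independent draws. They do not cover differences between animals or cultures. SDs are over cells. Of each list, the 3 members with the largest absolute log2 ratio of pooled CPM among genes read in at least 10 cells are named, all listed members if 3 or fewer, and the 5 genes of highest Spearman correlation with each member read in at least 5 cells of a group. Anxa2 and Myh9, single cells and the pairs of partner genes correlated were chosen after values were seen. The members and lists were chosen with earlier results of these data known. GENCODE M21 matched 3502 of 3613 genes. Python 3.11.15, scipy 1.17.1 and pandas 2.3.3 were used. Alternatives were other totals, scalings and detection limits, thinning to 300000 reads and leaving out cells.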

Additional observations from a re-analysis of the deposited data

How the results depend on the processing

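The log2 ratio of each of the 4 genes stayed above 0 under every alternative tried. S100a8 had 3.14 as a difference of mean log levels and 9.10 without the top cell of each group, against 6.24. S100a4 had 1.55 with the listed genes' reads as the total and 2.22 as mean log levels, against 1.81. Lgals3 had 3.56, 5.85, 4.12 with median-ratio scaling and 3.76 without the top cells, against 3.82. The median of all genes was −0.14, −0.40 with listed reads as the total and 0.03 with median-ratio scaling. S100a9 ran from 0.39 to 2.25 around 1.15, within its counting interval. Its share of co-cultured cells was 2 of 20 at 10 CPM (10%, against 7 of 20), 0% at 10 reads and 11.1% after thinning, and of no-MK cells 0% at 10 CPM and 0% at 10 reads, against 16.7%. Lgals3 was in 12 of 24 no-MK cells at 10 reads (50%, against 83.3%). Weighted by CPM, the top cell held 22.3% of S100a4 and 20.8% of Lgals3 in co-cultured cells and 21.8% of Lgals3 in no-MK cells, against 25.4%, 23.5% and 19.5%. Cells with both S100a8 and S100a9 numbered 2 at 10 CPM, 0 at 10 reads and 1 after thinning in co-cultured cells, against 4, and 0 under all 3 in no-MK cells, against 2. The other 55 values stayed within their intervals or within 1.5 times. Of 12 S100 and galectin genes, the 4 members included, 7 to 8 were at least 2-fold higher, or 6 at 4-fold, with none lower. Of all genes under the same settings, 20.6 to 28.9% were at least 2-fold higher and 25.4 to 33.6% at least 2-fold lower. At 4-fold these shares were 14.2% and 13.4%. The members were chosen with earlier results known, so these counts are descriptions. The causes of the shifts between settings were not tested. No paired analysis was possible because the cells share only numbers and no test was made.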
